A study of Acartia tonsa with 26 samples.

Results

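DN2252_c0_g1 and DN20787_c0_g1 are 2 genes of a de novo transcriptome assembly of the calanoid copepod Acartia tonsa whose best protein match is the yeast transcription factor subunit UAF30. They were taken by their assembly identifiers, 2 of the 9590 genes in the 2 deposited tables, and both are listed in both tables. They were chosen by their deposited values, as abundant early transcripts, that is, selected on their levels in the developing eggs, so those levels are given as a description with no test. In budding yeast, Uaf30 is a subunit of the upstream activation factor, a complex that binds the promoter of the ribosomal RNA genes and recruits RNA polymerase I. Uaf30 carries a SWIB domain, a fold first named in a subunit of SWI/SNF chromatin remodelling complexes. In the early embryos of many animals transcripts laid down by the mother are cleared while the embryo's own genes switch on. Neither identifier lists a SWIB domain, so a link of these genes to chromatin rests on the protein match alone, and they are called UAF30 matches below. The assembly identifiers name 11 UAF30 matches in all, and 1 of the other 9, DN529_c0_g1, lists a SWIB domain.

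Batches of eggs were sampled in 6 groups, with 26 libraries in all. Subitaneous eggs, which develop without a pause, were kept at 16.9 °C. They were taken with 4 to 16 cells at 3 h (n = 5), in gastrulation at 7 h (n = 5), in organogenesis at 14 h (n = 4), in what is labelled appendix formation at 24 h (n = 4), and as nauplii about to hatch at 42 h (n = 5). Quiescent eggs, also labelled as gastrulation, had been put at 4 °C without oxygen and were taken at 26 h (n = 3). All eggs came from a population held in the dark in 60 L tanks at a salinity of 32, and the replicates are described as technical, so p-values cover the spread between such samples and not that between cultures.

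The deposited values are normalized read counts, not divided by transcript length, so levels are compared for 1 gene at a time. A value of 1 stood for 81.8 to 112 reads, and the tables held between 4.32e+06 and 2.42e+07 reads of a library. DN2252_c0_g1 rested on 3038 to 74681 reads in a library and DN20787_c0_g1 on 22 to 5873. The library 42 h D was unlike the other 42 h libraries, with a rank correlation of 0.31 with the rest of its group, against 0.754 to 0.88 for the other 4. It correlated better with early eggs (0.836 with the 3 h mean) and with quiescent eggs (0.834), so the main results on 42 h eggs are given with and without it. Replicate letters A and B use sample-sheet numbers that C, D and E use again, so the libraries were taken as 2 sets, an inference from the labels. In whole batches of eggs, fewer cells that hold a transcript and less of it per cell cannot be told apart.

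DN2252_c0_g1 was highest at 3 h, and its mean was 2.42-fold lower at 7 h and lower again at 14 h. The 3 h libraries held 639, 764, 860, 667 and 744 (A to E; mean 735 ± 87.2, SD, n = 5). The 7 h libraries held 327, 243, 321, 287 and 342 (304 ± 39.5, n = 5). At 14 h the libraries A, B, C and E held 84.9, 43.5, 84.8 and 61.1 (68.6 ± 20.1, n = 4). Each 7 h library lay below every 3 h library, and each 14 h library below every 7 h library. At 24 h the libraries A to D held 33.8, 37.5, 53.0 and 60.7 (46.2 ± 12.7, n = 4). At 42 h the libraries A to E held 42.0, 73.4, 31.4, 527 and 60.3 (147 ± 213, n = 5), and without D the mean was 51.8 ± 18.7 (n = 4). The 14 h and 24 h values overlap, and so do those of 24 h and 42 h.

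On the log2(value + 1) scale the 7 h minus 3 h difference of DN2252_c0_g1 was -1.27 (SE 0.49) and the 14 h minus 7 h difference was -2.17 (SE 0.52). Each SE comes from 1 spread fitted over all 26 libraries, 42 h D among them, and not from the groups compared alone. The 24 h minus 14 h difference was -0.55 (SE 0.55), close to 1 SE. The 42 h minus 24 h difference was 0.81 (SE 0.52), and 0.13 without 42 h D. These differences depend on how libraries are scaled to each other. The other scalings were estimated from the genes of the deposited tables, all selected by the authors as changing. They are thus not a neutral check of the deposited scaling. After quantile normalization the 7 h minus 3 h difference was 0.10 in place of -1.27, and after median-ratio scaling the 14 h minus 7 h difference was -3.37. The median of the 5201 genes tested moved as well: its 14 h minus 7 h difference was 0.41 as deposited and 0.07 after median-ratio scaling.

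**Figure D1:**
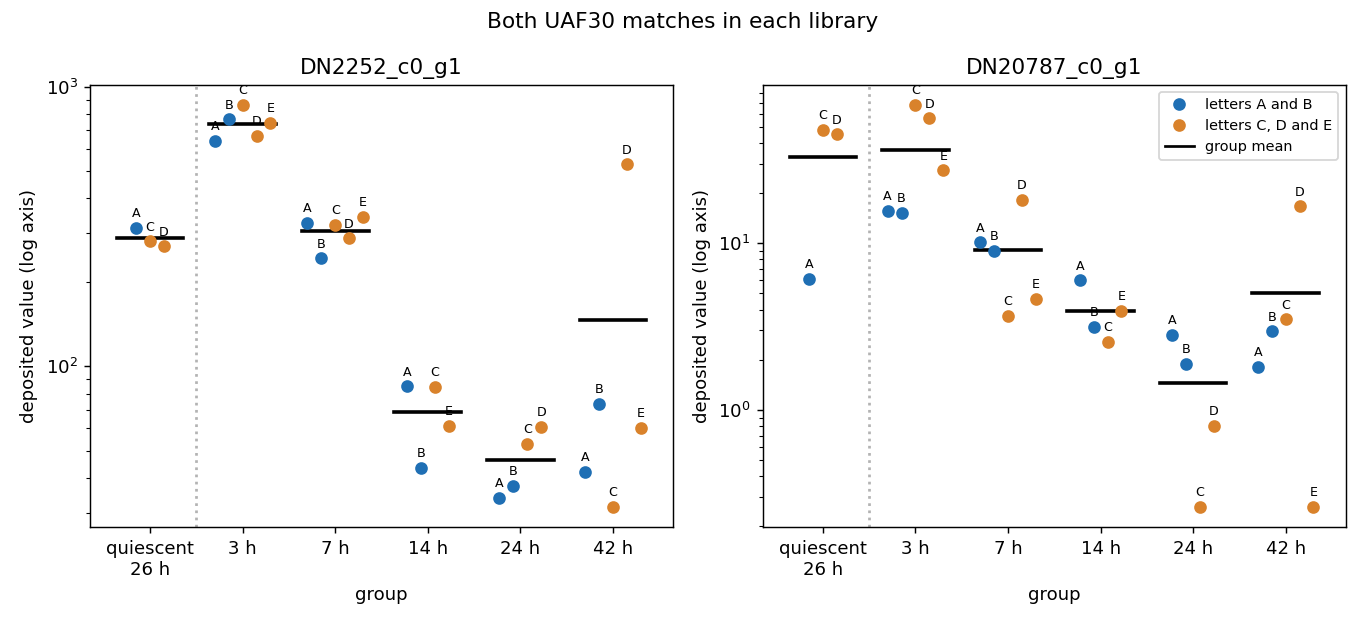
Deposited values of both genes in each library (log axis), with quiescent eggs at the left and developing eggs in order of age; letters mark the replicates, colours the 2 sets of letters, and black lines the group means. DN2252_c0_g1 steps down from 3 h to 14 h, with little spread at 3 h and 7 h and more at 14 h, and the 42 h D library lies at 527. DN20787_c0_g1 spreads more within groups, and the quiescent library A (6.13) lies far below C (47.7) and D (45.1).

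DN20787_c0_g1 was also highest at 3 h among developing eggs, with a mean 4.00-fold lower at 7 h, and it varied far more between replicates. The 3 h libraries A to E held 15.7, 15.2, 67.6, 56.2 and 27.4 (36.4 ± 24.1, SD, n = 5), so that the highest was 4.45 times the lowest, against 1.35 times for DN2252_c0_g1. The 3 values of letters C, D and E averaged 50.4, and those of letters A and B 15.4. At 7 h the libraries A to E held 10.1, 8.96, 3.66, 18.1 and 4.65 (9.11 ± 5.75, n = 5). The 7 h library D lay above the 3 h libraries A and B, so these groups overlap.

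The later stages were lower still. The 14 h libraries A, B, C and E held 5.99, 3.16, 2.57 and 3.94 (3.91 ± 1.49, n = 4), within the range of the 7 h libraries apart from B and C. The 24 h libraries A to D held 2.82, 1.89, 0.261 and 0.797 (1.44 ± 1.14, n = 4), which overlaps 14 h in library A alone. The 42 h libraries A to E held 1.81, 2.96, 3.50, 16.7 and 0.261 (5.04 ± 6.61, n = 5), and without D 2.13 ± 1.43 (n = 4), again over the 24 h range. The log2 differences between successive stages were -1.81 (SE 0.61), -0.90 (SE 0.65), -1.09 (SE 0.69) and 0.86 (SE 0.65) in order of age, and the last was 0.33 without 42 h D. After median-ratio scaling the 14 h minus 7 h difference was -1.93. By edgeR that difference was -2.55 and by DESeq2 -2.42, and with a pseudocount of 0.1 the 24 h minus 14 h difference was -1.71. In the main fit, whose SE takes in 42 h D, successive stages from 7 h on differed by less than 2 SE each.

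Quiescent eggs held more of both transcripts than 14 h and 24 h eggs. The levels of developing eggs were part of how both genes were chosen. The adjusted p-values against those stages are thus not independent evidence. For DN2252_c0_g1 the quiescent libraries A, C and D held 313, 280 and 269 (287 ± 23.2, SD, n = 3), a level 4.19-fold that of 14 h eggs and 6.21-fold that of 24 h eggs. All 3 lay within the range of the 7 h eggs (243 to 342) and below all 3 h eggs. The limma test on log2(value + 1), adjusted by Benjamini-Hochberg over all genes of a table, gave a difference of 2.10 (SE 0.65, adjusted p = 0.00897) from 14 h eggs. From 24 h eggs it was 2.65 (SE 0.60, adjusted p = 0.0033), also higher in quiescent eggs in 3 of 3 libraries. Of all genes tested, 14.7% were called higher and 48.6% lower in quiescent than in 14 h eggs (quiescent table), and 8.04% higher and 15.3% lower than in 24 h eggs (subitaneous table). The size of the difference from 14 h eggs depended on the scaling. In place of 2.10 it was 0.67 after quantile normalization (limma adjusted p = 0.549), 4.01 after median-ratio scaling (limma adjusted p = 0.00322), 3.55 by edgeR (adjusted p = 0.0301) and 4.00 by DESeq2 (adjusted p = 0.0012).

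From 7 h eggs, which carry the same stage label, quiescent eggs differed in DN2252_c0_g1 by -0.07 (SE 0.62, limma adjusted p = 0.999), less than the replicates spread. Of all genes tested, 3.86% were called higher and 0.238% lower than in 7 h eggs (quiescent table), and 0.442% higher and 5.83% lower than in 3 h eggs (subitaneous table). The difference was -1.16 by edgeR with TMM factors (adjusted p = 0.603) and -0.92 after median-ratio scaling (limma adjusted p = 0.687). Against 3 h eggs it was -1.35 (SE 0.57, limma adjusted p = 0.286), although no quiescent library overlaps a 3 h library. That call changed with the libraries that set the spread: limma without 42 h D gave adjusted p = 0.000618, and limma on these 2 groups alone adjusted p = 0.000163. The exact two-sided permutation test gave p = 0.0179, the smallest that 3 against 5 libraries allow. Other scalings, estimated from genes that had been selected as changing, did not make the call. The difference from 3 h eggs was -0.18 after quantile normalization (limma adjusted p = 0.959), -1.43 after median-ratio scaling (limma adjusted p = 0.5435) and -1.46 by edgeR (adjusted p = 0.6315). By deposited level the order was 3 h, then 7 h and quiescent, which do not differ beyond their spread, and then 14 h, 42 h without D and 24 h, which overlap.

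DN20787_c0_g1 in the quiescent libraries A, C and D held 6.13, 47.7 and 45.1 (33.0 ± 23.3, SD, n = 3). Quiescent C and D lay with the upper 3 h libraries, while A lay among the 7 h libraries and just above 14 h A (5.99). For this gene too, developing levels were part of the choice, so its adjusted p-values are not independent evidence. The limma difference was 2.41 (SE 0.75, adjusted p = 0.00897) from 14 h eggs and 3.49 (SE 0.74, adjusted p = 0.00243) from 24 h eggs, with 3 of 3 quiescent libraries above every library of those stages. The 14 h call was lost without quiescent C (1.93, limma adjusted p = 0.0582) or without quiescent D (1.97, limma adjusted p = 0.0527), and without quiescent A the difference was 3.32. By edgeR it was 4.48 (adjusted p = 0.0269), by DESeq2 4.89 (adjusted p = 0.000476), and after median-ratio scaling 3.92 (limma adjusted p = 0.000867). From 7 h eggs the limma difference was 1.50 (SE 0.71, adjusted p = 0.32) and from 3 h eggs -0.31 (SE 0.71, adjusted p = 1.0), neither past the threshold. The difference from 7 h eggs was 2.41 without quiescent A, 1.03 without quiescent C, 0.74 after median-ratio scaling, 0.48 after quantile normalization, 0.62 by edgeR and 0.82 by DESeq2, and past the threshold in none of these.

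The 7 h comparison of DN20787_c0_g1 went opposite ways in the 2 sets of letters. Among A and B, the quiescent value was 6.13 (A alone) and the 7 h mean was 9.54. Among C, D and E, the quiescent mean was 46.4 (C and D) and the 7 h mean was 8.82. Without quiescent A, the difference from 3 h eggs was 0.60 in place of -0.31. The part of the set of libraries in the quiescent level of this gene was not tested, since only 1 quiescent library carries letter A or B. By level the order was 3 h and quiescent, then 7 h, 14 h, 42 h without D and 24 h, with each neighbour in that order overlapping the next.

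With the deposited scaling, both genes were thus among the minority of tested genes that was called higher in quiescent than in 14 h eggs. In the quiescent table the median quiescent minus 14 h difference was -0.76 as deposited and -0.08 after median-ratio scaling. After quantile normalization DN2252_c0_g1 was not called. The levels of the developing groups were part of how both genes were chosen, and the authors had selected every gene in the tables as changing among these samples, so these calls are not independent evidence.

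The ratio of both genes within a library depends on the scaling between libraries only through the 1 added to each value. The mean log2 ratio of DN2252_c0_g1 to DN20787_c0_g1, with 1 added to each value, was 4.55 ± 0.92 in 3 h eggs, 5.09 ± 0.92 in 7 h eggs, 3.82 ± 0.52 in 14 h eggs, 4.36 ± 1.07 in 24 h eggs and 4.31 ± 1.04 in 42 h eggs (4.16 ± 1.13 without D), and 3.51 ± 1.69 in quiescent eggs (SD). Between successive stages the ratio differed by 0.54 (7 h minus 3 h), -1.27 (14 h minus 7 h), 0.54 (24 h minus 14 h) and -0.06 (42 h minus 24 h), given as a description because both genes were chosen on their levels in developing eggs. The quiescent minus 7 h difference was -1.58 (exact two-sided permutation p = 0.143, adjusted 0.429 by Benjamini-Hochberg over 6 contrasts; the smallest p these groups allow is 0.0179). The quiescent minus 14 h difference was -0.31 (exact permutation p = 0.771, adjusted 0.926; the smallest p is 0.0286). Neither passed the threshold, and the developing eggs in both were part of the choice.

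Replicates of 1 group differed widely in this ratio. Quiescent A, with a ratio of values of 51.1, stood with the 3 h libraries A (40.7) and B (50.3). Quiescent C and D had ratios of 5.86 and 5.96, the lowest of all 26 libraries. Among letters A and B alone the quiescent minus 7 h difference was 0.71, opposite in sign to the pooled -1.58. In 42 h E (231) and 24 h C (203) the ratio was highest, where DN20787_c0_g1 rested on 22 and 27 reads.

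**Figure D2:**
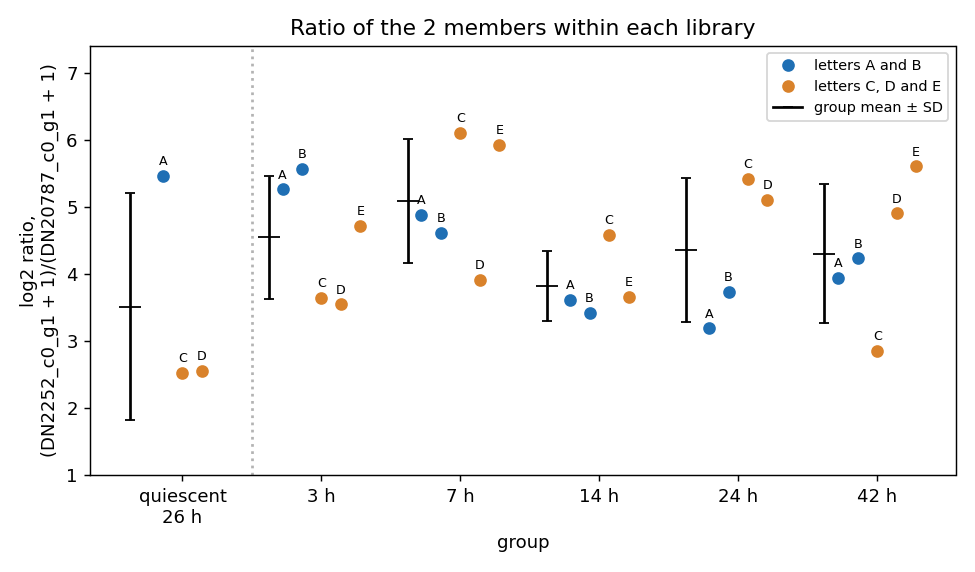
Log2 ratio of DN2252_c0_g1 to DN20787_c0_g1 within each library, 1 added to each value; letters mark the replicates, colours the 2 sets of letters, and bars the group mean ± SD. The groups overlap, and quiescent A (ratio of values 51.1) lies apart from C (5.86) and D (5.96).

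The other 9 UAF30 matches were all tested, and 8 of them had a lower mean at 14 h than at 3 h, DN90193_c0_g1 being the exception. From 3 h to 7 h, 1 of 9 fell in limma's test and 0 rose. The gene that fell, DN56949_c1_g1, held 0.502 ± 0.541 in 7 h eggs, against 6.29 ± 1.55 in 3 h eggs (SD, n = 5 each; log2 difference -2.32, SE 0.27, adjusted p = 2.16e-07), a call that edgeR did not make (adjusted p = 0.0999). Of all genes tested 0.0961% were called higher and 11.1% lower at this step in the main fit. Shares of all genes here and below are from that fit, so counts from other fits have no matching share. Without 42 h D limma called 3 of the 9 lower and 1 higher. Without 7 h A, 7 h D, quiescent A or quiescent C it called 1 lower and 1 higher.

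From 7 h to 14 h, 4 of 9 fell and 0 rose, where 2.48% of all genes tested were called lower and 21.1% higher. The 4 were DN6984_c1_g1 (-1.74, SE 0.43), DN108694_c0_g1 (-1.73, SE 0.48), DN529_c0_g1 (-1.69, SE 0.47) and DN2252_c1_g2 (-1.62, SE 0.45), with limma adjusted p from 0.00385 to 0.00969. DN529_c0_g1, the match with a SWIB domain, held 516 ± 40.0 in 14 h eggs (n = 4) against 1681 ± 225 in 7 h eggs (n = 5). Its levels and those of DN108694_c0_g1, 414 ± 58.1 in 14 h eggs against 1373 ± 148 in 7 h eggs, do not overlap between the stages. The median difference of the 9 was -1.50, against 0.41 for all genes tested, and the values ran from -1.74 to -0.15. DN529_c5_g1 was not called here (limma adjusted p = 0.0726) but was called lower in the quiescent table (limma adjusted p = 0.0295). Without 42 h D limma called 7 of 9 lower, with no share of all genes from that fit to set beside it. After quantile normalization DN529_c0_g1 and DN108694_c0_g1 missed the threshold (limma adjusted p = 0.0779 and 0.136).

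From 14 h to 24 h and from 24 h to 42 h, limma called 0 of the 9. At an unadjusted p under 0.05 there was 1 at each step. Both edgeR and DESeq2 called 0 at both, with a gene lacking a DESeq2 adjusted p counted as not called. Limma called 1 higher at 42 h than at 24 h without 42 h A or without 42 h C. The medians of the 9 were -0.46 and 0.55, against -0.04 and 0.66 for all genes tested. Without 42 h D the median at the second step was 0.11 (range -0.48 to 0.45), against 0.93 for all genes tested. The shares of all genes called higher and lower were 2.83% and 9.61% at the first of these steps and 44.9% and 5.33% at the second.

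DN90193_c0_g1 had its lowest mean at 3 h. It held 16.1 ± 4.09 in 3 h eggs, 51.0 ± 26.5 in 7 h eggs, 36.4 ± 18.6 in 14 h eggs, 78.0 ± 20.5 in 24 h eggs and 81.5 ± 21.2 in 42 h eggs (90.2 ± 9.91 without D; SD), and 54.3 ± 58.4 in quiescent eggs (n = 3). Its 7 h minus 3 h difference was 1.48 (SE 0.50, limma adjusted p = 0.057). Over the 26 libraries its Pearson r on the log2 scale was -0.59 with DN2252_c0_g1 and -0.80 with DN20787_c0_g1.

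**Figure D3:**
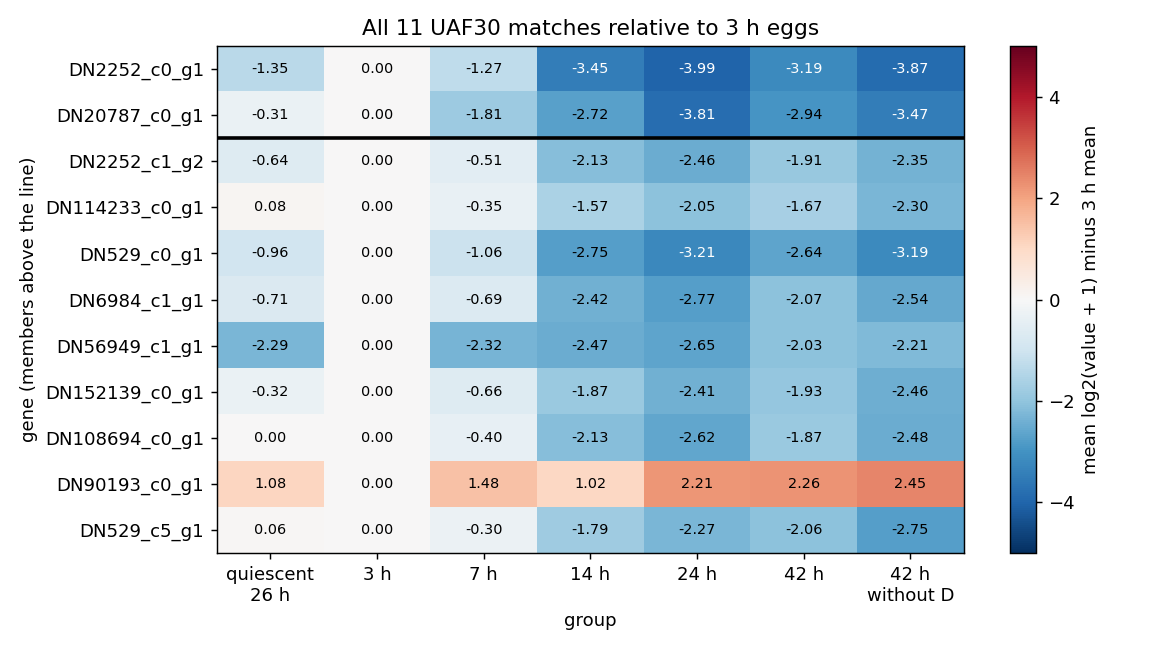
Mean log2(value + 1) of each of the 11 UAF30 matches minus its own 3 h mean (colour and number), for quiescent eggs and the developing groups in order of age, the last column without the 42 h D library. Both members (above the line) and 8 of the other 9 are lower at 14 h and 24 h than at 3 h, with differences of -3.45 (DN2252_c0_g1) and -2.72 (DN20787_c0_g1) at 14 h, and DN90193_c0_g1 is higher.

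In quiescent eggs the deposited mean levels of the other matches lay near their 7 h means, though single libraries could spread widely. In quiescent A, C and D, DN90193_c0_g1 held 120, 9.66 and 32.9, and DN2252_c1_g2 held 77.8, 251 and 156. Limma called 0 of the 9 between quiescent and 7 h eggs, 0 passed an unadjusted p of 0.05, and edgeR and DESeq2 called 0. The 9 differences ran from -0.40 to 0.44 with a median of 0.10, against 0.07 for all genes tested, of which 0.288% were called higher and 0.0% lower in the subitaneous table. Against 14 h eggs, 5 of the 9 were higher in quiescent eggs and 0 lower, with a median of 1.66 against -0.41, where 5.08% of all genes were called higher and 11.9% lower. These were DN108694_c0_g1 (2.13, SE 0.55), DN529_c0_g1 (1.79, SE 0.54), DN6984_c1_g1 (1.71, SE 0.49), DN114233_c0_g1 (1.66, SE 0.57) and DN2252_c1_g2 (1.49, SE 0.51), with limma adjusted p from 0.00909 to 0.0466. DN108694_c0_g1 held 1814 ± 186 in quiescent eggs (n = 3) against 414 ± 58.1 in 14 h eggs (n = 4). These calls are from the subitaneous table, where DN529_c5_g1 was not called (limma adjusted p = 0.062). In the quiescent table, used for both members, DN529_c5_g1 was called higher (1.85, SE 0.68, limma adjusted p = 0.0225). The count of 5 depended on the test and on single libraries, and the shares above are those of the main fit alone. It was 0 by edgeR and 1 by DESeq2. In limma's test it was 7 without 42 h C or without 42 h D, 1 without quiescent C or without quiescent D, and 3 without 24 h B, without any 7 h or 14 h library, or without any 3 h library other than C. In the DESeq2 counts a gene without an adjusted p stands as not called. At 14 h against 7 h DESeq2 gave no adjusted p for DN529_c0_g1, DN6984_c1_g1, DN108694_c0_g1 and DN114233_c0_g1. Its counts thus cannot be read as a test of all 9 genes.

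**Figure D4:**
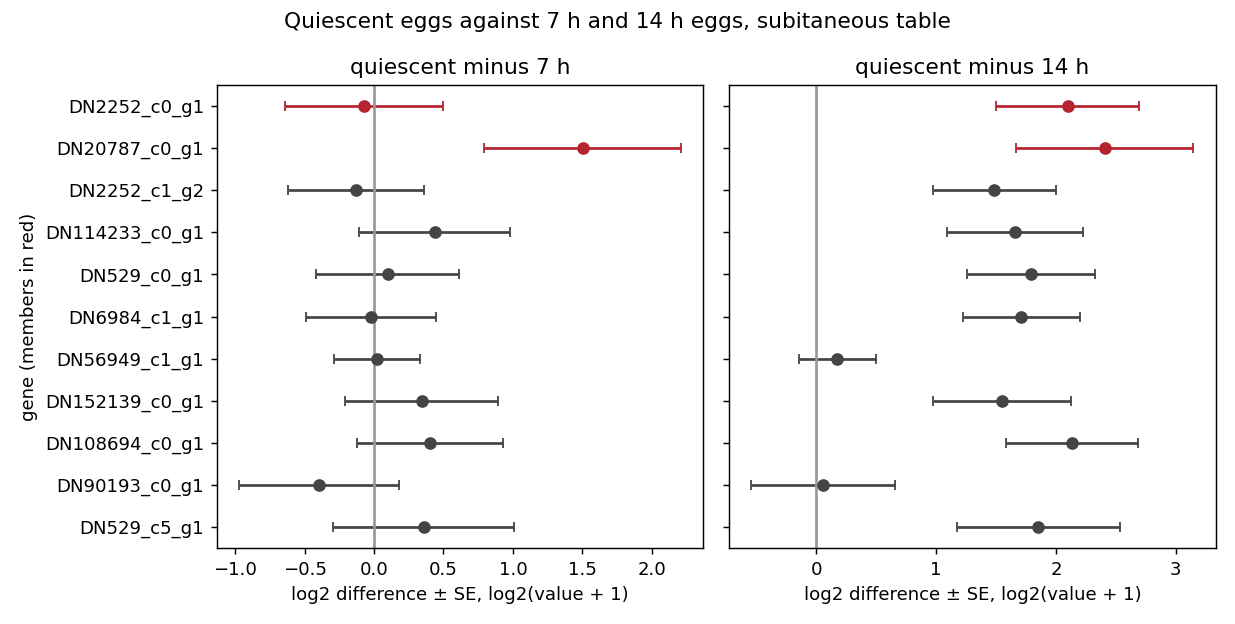
Log2 difference of quiescent minus 7 h eggs (left) and quiescent minus 14 h eggs (right) for each UAF30 match, with the SE of the limma fit to the subitaneous table; members are red. Against 7 h eggs the values other than that of DN20787_c0_g1 (1.50) lie between -0.40 and 0.44. Against 14 h eggs both members (2.10 and 2.41) and 7 of the other 9 lie above 1.

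The level of DN2252_c0_g1 over all 26 libraries was most like that of DN529_c0_g1, the match with a SWIB domain (Pearson r of log2(value + 1) = 0.985, the highest among the 5201 genes tested). The next 4 genes, from DN40271_c0_g1 (0.983) to DN4343_c0_g1 (0.978), carry no named match. For DN20787_c0_g1 the nearest was DN27941_c0_g1 (0.958), and 4 of its nearest 5 carry no named match. The other, DN55100_c0_g1 (0.912), matches a protein with the HSP20 domain of small heat shock proteins, chaperones that bind unfolded proteins. The r between DN2252_c0_g1 and DN20787_c0_g1 themselves was 0.80. These correlations share the libraries, their scaling and the 42 h D library. After median-ratio scaling 3 of the nearest 5 of each gene were still among them, and without 42 h B 2 of those of DN2252_c0_g1. DN2252_c1_g2 shares the first part of its assembly identifier with DN2252_c0_g1 (r = 0.94), as DN529_c5_g1 does with DN529_c0_g1. Without sequences, how alike such genes are is not known. How any reads they share were counted is not given in the sources used here, so the levels of single matches are uncertain.

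Other chromatin genes were few among those tested, and 4 of them fell between 3 h and 7 h. The list of chromatin proteins held 49 genes besides UAF30 matches, of which 13 passed the filter in the subitaneous table. At that step 4 of 13 fell and 0 rose, where 11.1% of all genes tested were called lower and 0.0961% higher, with a median of -0.15 against -0.06 for all genes tested. The split moved with the method: limma called 3 lower and 2 higher after quantile normalization, and 5 lower and 1 higher after median-ratio scaling or without 42 h D, and DESeq2 called 2 lower and 1 higher. A match to the heterochromatin proteins CBX1 and CBX3 (DN542_c0_g1), which bind methylated histone H3, held 3.78 ± 0.644 in 7 h eggs against 17.2 ± 1.13 in 3 h eggs (SD, n = 5 each; log2 difference -1.94, SE 0.22, limma adjusted p = 1.25e-07). The others were a further CBX3 match (DN77402_c0_g1, -1.15), a gene with a methyl-CpG binding domain (DN32341_c0_g1, -1.05) and a match to the histone H4 methyltransferase KMT5A (DN767_c2_g1, -0.94).

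From 7 h to 14 h, the step at which 4 of the other 9 UAF30 matches fell, 0 of 13 chromatin genes were called by limma, where 21.1% of all genes tested were called higher and 2.48% lower. There were 2 at an unadjusted p under 0.05, edgeR called 2 higher and 1 lower, and DESeq2 2 and 2. After median-ratio scaling limma called 1 higher and 5 lower. It called 2 higher without 42 h D, and 1 higher without 7 h B, 24 h D or 42 h C. From 14 h to 24 h limma called 1 of 13, a SMYD4 match with a SET domain (DN4891_c0_g1, 0.83), higher in 24 h eggs, where 2.83% of all genes were called higher and 9.61% lower, and edgeR also called 1 higher. Limma called 0 when any 1 of 14 h A, B or C or 24 h A, B or C was left out, and 2 without 42 h A or 42 h D. From 24 h to 42 h limma called 3 higher and 3 lower, where 44.9% of all genes were called higher and 5.33% lower, and on these 2 groups alone it called 0. The higher calls depended on the method: 0 were called higher, and 4 to 6 lower, with a pseudocount of 0.1, after median-ratio scaling or quantile normalization, by edgeR and by DESeq2. Without 42 h D limma called 3 higher and 4 lower. Without 24 h A, 42 h B or 42 h C it called 1 higher and 2 lower. Of the list, 2 genes were tested in the quiescent table. Against 7 h eggs 0 were called, 0 passed an unadjusted p of 0.05, and edgeR and DESeq2 called 0. Against 14 h eggs 1 of the 2 was lower in quiescent eggs, a share near the 48.6% of all genes called lower. It was a match to the transcription factor SOX11 (DN12174_c0_g1), which held 0.343 ± 0.483 in quiescent eggs (n = 3) against 3.69 ± 1.06 in 14 h eggs (n = 4), with a log2 difference of -1.84 (SE 0.66, limma adjusted p = 0.0196). That call was not made by edgeR or DESeq2, nor by limma without quiescent A or without quiescent D.

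Of the machinery that transcribes ribosomal RNA genes, the tables held 1 gene besides UAF30 matches. This match to a subunit shared by RNA polymerases, RPAB3 (DN113390_c0_g1), reached at most 0.783 in a library and was not tested. A search by name for markers of algae that copepods eat found 2 matches to a plant chlorophyllase. Whether these 2 genes come from algae was not tested. Their summed value was 0.018 to 0.063 in quiescent eggs, 0.059 to 0.145 in 3 h eggs, 0.02 to 0.055 in 7 h eggs and up to 1.22 later. No gene named for light harvesting, RuBisCO or a photosystem was in the tables. No sequence is printed for these genes, since the tables used here give identifiers and values alone.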

How the data were processed

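Total RNA (0.3 µg a library, TruSeq kit) was sequenced in 26 libraries. The deposited tables hold normalized signal values for 9502 genes (subitaneous table) and 2777 genes (quiescent table), 2689 of them shared with identical values. Per the labels, the authors selected these genes for differential expression (alpha 0.001, fold change 2). The submitters' processing notes name bcl2fastq and edgeR; their versions, the aligner, the counting and the scaling are not stated in those sources. All low values were whole reads within 0.1 of a step (100%). No pair of libraries of 1 group agreed within sampling noise.

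A gene was tested where at least 3 libraries reached a value of 1 (5201 and 1682 genes). The test was limma 3.58.1 under R 4.3.3, fitted by group to log2(value + 1) of all 26 libraries, with trended and robust eBayes, and a call was a Benjamini-Hochberg adjusted p under 0.05. For both members the quiescent comparisons with 7 h and 14 h used the quiescent table, and all others the subitaneous table, apart from the chromatin list, which used the quiescent table for quiescent eggs. Alternatives were edgeR 4.0.16 and DESeq2 1.42.0 on recovered reads, other scalings, pseudocounts and filters, and left-out libraries. The median-ratio, quantile, TMM and DESeq2 scalings were estimated from the genes of a table alone, all selected by the authors as changing. A gene for which DESeq2 gave no adjusted p was counted as not called, so DESeq2 counts are not a test of every gene of a list. Shares of all genes called are from the main fit alone. The fit was tested on simulated data. Differences on this log2 scale understate those of genes with low values.

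The members and the lists were chosen with earlier results of these data known. Named are the members, every gene with a UAF30 match or SWIB domain, those of the ribosomal RNA gene list, the 5 nearest by Pearson r, and the chromatin genes called where 5 or fewer were called. UAF30 matches were counted apart from the chromatin list, and 1 gene caught by name in error was left out, both after the tables were read. Of the identifiers, 0 matched the RefSeq gene table.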

Additional observations from a re-analysis of the deposited data

Results flagged for a closer look

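In 13 of 60 sets of values examined (each of the 11 UAF30 matches, and the log2 ratio of both members, in each of the 5 developing groups), 1 library lay far from the rest of its group; chance alone would flag about 1 in 20. In 9 of the 13 that library was 42 h D, which held 527.172 of DN2252_c0_g1, 16.652 of DN20787_c0_g1, 202.183 of DN2252_c1_g2, 171.468 of DN114233_c0_g1, 2568.109 of DN529_c0_g1, 537.407 of DN6984_c1_g1, 218.682 of DN152139_c0_g1, 2667.368 of DN108694_c0_g1 and 15.575 of DN529_c5_g1, each the highest of the 5 libraries. DN114233_c0_g1 was low in 3 h A (85.897) and high in 14 h C (44.462). DN6984_c1_g1 was low in 14 h B (103.187), and DN108694_c0_g1 was low in 7 h B (1116.036).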

How the results depend on the processing

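The quiescent comparisons of both members with 7 h and 24 h eggs kept their direction and their side of the threshold in every alternative that returned an adjusted p. Each of the 26 libraries left out in turn was among these. DESeq2 returned none for DN2252_c0_g1 against 24 h eggs. Same-letter libraries did not deviate together throughout. Over the comparisons the correlations of their deviations ran from -0.466 to 0.501, and in no comparison were all above 0.1, so the letters were not taken as pairs. For every letter the correlation was positive in 7 h against 3 h (0.0777 to 0.477) and in quiescent against 3 h (0.0386 to 0.184). Shared deviations of a letter are thus not excluded there. With the letter as a replicate block, limma gave quiescent minus 14 h differences of 1.82 for DN2252_c0_g1 and 1.88 for DN20787_c0_g1, both still called, and called 1 of the other 9 UAF30 matches higher in quiescent than in 14 h eggs in place of 5.

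For quiescent against 3 h eggs, the difference of DN2252_c0_g1 (-1.347) passed with only the 2 groups compared, in the exact permutation test and without 42 h D (range over left-out libraries -1.411 to -1.288). After quantile normalization the difference of DN2252_c0_g1 was -0.176. The difference of DN20787_c0_g1 turned to 0.279 after quantile normalization and to 0.597 without quiescent A (range -0.789 to 0.597). For quiescent against 14 h eggs, quantile normalization left 0.666 for DN2252_c0_g1, and DN20787_c0_g1 lost its call without quiescent C or D (range 1.93 to 3.316).

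Stage differences of the members moved with the scaling, the pseudocount and the type of fit. For DN2252_c0_g1, 7 h minus 3 h was 0.095 after quantile normalization; 14 h minus 7 h was -3.374 after median-ratio scaling, -3.479 by edgeR and -3.34 by DESeq2; 42 h minus 24 h was 2.893 by edgeR and 2.881 by DESeq2 (0.128 to 1.135 with libraries left out). For DN20787_c0_g1, 14 h minus 7 h was -1.93 after median-ratio scaling, -1.815 after quantile normalization, -2.547 by edgeR and -2.419 by DESeq2; 24 h minus 14 h was -1.706 with a pseudocount of 0.1 and -1.739 by DESeq2; 42 h minus 24 h was 3.0 by edgeR and 3.118 by DESeq2. By edgeR with the deposited scaling, 42 h minus 24 h was 1.667 for DN2252_c0_g1 and 1.802 for DN20787_c0_g1. The ranges with libraries left out are from limma, and edgeR and DESeq2 were not run without 42 h D. The DN56949_c1_g1 difference of 14 h minus 7 h was 0.034 without 7 h C (range -0.282 to 0.034).

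Among letters A and B alone, the log2 ratio of the members differed by -0.663 (7 h minus 3 h), -0.058 (24 h minus 14 h), 0.623 (42 h minus 24 h), 0.713 (quiescent minus 7 h) and 1.942 (quiescent minus 14 h). With libraries left out, 42 h minus 24 h ran from -0.446 to 0.308, being 0.297 without 24 h C, 0.191 without 24 h D, 0.037 without 42 h A and 0.308 without 42 h C. Quiescent minus 14 h ran from -1.281 to 0.186, being 0.186 without quiescent C and 0.175 without quiescent D.

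Of the other 9 UAF30 matches, the 7 h against 3 h count of 1 was 2 with a pseudocount of 0.1, after quantile normalization or by DESeq2, 0 by edgeR and 6 with only the 2 groups compared (1 to 4 with libraries left out). For 14 h against 7 h it was 8 after median-ratio scaling and 7 with only the 2 groups compared, in place of 4 (4 to 7). For 24 h against 14 h it was 1 after quantile normalization or with only the 2 groups compared, and for 42 h against 24 h 1 by edgeR with the deposited scaling, an alternative chosen after seeing the data (0 to 1). For quiescent against 14 h it was 3 without the filter or after quantile normalization, 0 by edgeR and 1 by DESeq2 (1 to 7).

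Chromatin genes called at 14 h against 7 h were 2 with a pseudocount of 0.1, 1 without the filter, 6 after median-ratio scaling, 7 after quantile normalization, 3 by edgeR under either scaling, and 4 by DESeq2 or with only the 2 groups compared, in place of 0 (0 to 2 with libraries left out). At 24 h against 14 h they were 0 with a pseudocount of 0.1 or by edgeR with the deposited scaling, 4 without the filter, 3 after quantile normalization, and 2 after median-ratio scaling or with only the 2 groups compared, in place of 1 (0 to 2). At 42 h against 24 h they were 27 without the filter, 2 by edgeR with the deposited scaling and 0 with only the 2 groups compared, in place of 6 (3 to 7). For quiescent against 7 h eggs edgeR with the deposited scaling called 1. Against 14 h eggs 0 were called under each other scaling and by edgeR and DESeq2, and 2 with only the 2 groups compared, in place of 1 (0 to 1). The depth of DN20787_c0_g1, down to 22 reads, limits its late values.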
